A study of Homo sapiens with 12 samples.

Results

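The growth arrest and stress targets of p53 described here are 7 genes, CDKN1A, GDF15, GADD45A, BTG2, PLK2, PLK3 and ATF3, followed on every bead array probe that the platform annotation names for them. The annotation named 8 probes for 6 of these genes, among 48802 probes on each array, 12852 of them with an entry in the annotation. Symbols were brought up to date through Entrez identifiers, and a gene that only carried one of these names as an older alias was not taken. No probe was named BTG2, so BTG2 was not analysed here. All 8 probes counted as detected, with 3 or more arrays at a detection p under 0.01. So did 13830 of the 48802 probes on these 12 arrays. Of the 12850 probes that the annotation gives 1 symbol, 12086 were detected, so detection hardly sets the 8 apart from other named probes. Most probes on the arrays had no entry in the annotation. A gene without a named probe may therefore still have a probe on the arrays.

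The series measured RNA of the cytoplasm, released by opening the plasma membrane with digitonin, in Cal51, a human breast carcinoma cell line. The 4 groups of 3 arrays were siIPMK with mitomycin C (MMC), siIPMK untreated, siCONTROL with MMC, and siCONTROL untreated. The siIPMK cells received an siRNA against IPMK, inositol polyphosphate multikinase, the siCONTROL cells a control siRNA, and all were harvested 72 hours after transfection. MMC, which crosslinks the strands of DNA, was present for the last 24 hours before harvest where it was given. Each group holds 1 array from each of the experiments numbered 1 to 3. All groups share the single cell line and the transfection, and no probe was named IPMK, so how far IPMK was depleted was not measured here.

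The p53 protein is a transcription factor that DNA damage stabilises, and its target genes halt the cell cycle, repair DNA or lead to cell death. CDKN1A encodes p21, the inhibitor of cyclin-dependent kinases through which p53 stops cells before S phase. GADD45A encodes a growth arrest protein that binds PCNA and p21, and GDF15 encodes a secreted member of the TGF-beta family released by stressed cells. PLK2 and PLK3 encode polo-like kinases of stress and cell cycle control, BTG2 an antiproliferative protein, and ATF3 a transcription factor of the ATF/CREB family that several stress pathways induce.

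Promoters are shown for CDKN1A, the arrest gene of the set, and for GDF15, whose transcript changed most among the members. PLK2, whose transcript changed less, is also shown. Of the members' windows searched, only that of PLK2 held an exact match to the p53 half-site. No window was available for GADD45A. Each window runs from 250 bases before to 50 bases after the start of the RefSeq gene, on GRCh38.p14, and is written 5′ to 3′ on the strand of the gene. The windows are chr6:36678464-36678763 on the plus strand for CDKN1A, chr19:18385908-18386207 on the plus strand for GDF15 and chr5:58460037-58460336 on the minus strand for PLK2. Capitals mark the motifs searched on both strands: the TATA box core TATAAA, the GC box GGGCGG, the CCAAT box CCAAT, the CRE half-site TGACG, the AP-1 site TGANTCA and the p53 half-site.
CDKN1A: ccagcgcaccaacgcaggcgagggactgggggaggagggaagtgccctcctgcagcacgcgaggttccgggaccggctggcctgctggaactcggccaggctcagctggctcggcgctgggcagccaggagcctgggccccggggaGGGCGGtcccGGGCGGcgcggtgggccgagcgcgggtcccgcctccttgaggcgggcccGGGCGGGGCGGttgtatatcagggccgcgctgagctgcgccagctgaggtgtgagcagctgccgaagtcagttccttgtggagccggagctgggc
GDF15: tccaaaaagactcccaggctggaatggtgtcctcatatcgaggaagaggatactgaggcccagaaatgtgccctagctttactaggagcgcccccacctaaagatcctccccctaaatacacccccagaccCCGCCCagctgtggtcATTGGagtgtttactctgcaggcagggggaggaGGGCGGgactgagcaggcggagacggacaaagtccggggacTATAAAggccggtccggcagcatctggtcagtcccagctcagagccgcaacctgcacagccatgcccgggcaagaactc
PLK2: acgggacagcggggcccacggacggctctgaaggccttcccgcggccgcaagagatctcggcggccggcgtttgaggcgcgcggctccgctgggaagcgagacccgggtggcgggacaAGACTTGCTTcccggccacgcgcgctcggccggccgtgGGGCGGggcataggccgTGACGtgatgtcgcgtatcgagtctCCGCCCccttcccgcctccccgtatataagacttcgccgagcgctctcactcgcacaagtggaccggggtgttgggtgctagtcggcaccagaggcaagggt
The CDKN1A window held 4 GC boxes, a pair of which overlap, and none of the other motifs. The GDF15 window held 1 TATA box core, 29 bases before the start, with 2 GC boxes and 1 CCAAT box. The PLK2 window held 2 GC boxes, 1 CRE half-site and 1 p53 half-site. Among 35114 RefSeq windows of this length, 45% held the GC box, 34.6% the CCAAT box, 24.6% the CRE half-site, 11.5% the TATA box core, 7.71% the AP-1 site and 6.63% the p53 half-site. Only exact matches were marked and counted, so a site with a mismatch would be missed. A match is a run of letters, not a site shown to be used.

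Between 12122 and 13458 probes were detected per array, 13067 to 13458 on siIPMK arrays and 12122 to 12687 on siCONTROL arrays. Arrays of the same group correlated across probes at 0.976 to 0.994. On the first principal component the siIPMK arrays of experiment 1 lay at -14.2 with MMC and -7.90 without it, apart from the other siIPMK arrays at -46.4 to -38.9, while the siCONTROL arrays lay at 27.6 to 36.4. The comparisons below that include siIPMK arrays are therefore also given without both of them for the called members, and for the gene lists as counts where any gene had been called. The epithelial markers KRT8, KRT18, KRT19, EPCAM and CD24 were detected on all 12 arrays, and no probe was named CDH1. Of the markers of other cell types, COL1A2 was detected on 12 arrays, PECAM1 on 11, and COL1A1 and VWF on 1 each. Of the 5 epithelial markers 4 rose and 0 fell with siIPMK both without and with MMC, where 20.3% and 20.7% of 9409 genes rose. Without both siIPMK arrays of experiment 1, 4 rose and 1 fell in each comparison. Of all genes 27.1% and 27.6% then rose, and 26.5% and 25.8% fell. The summed signal of the 5 markers was 27784 to 33441 with siIPMK and MMC and 24524 to 32062 with siIPMK alone. It was 16892 to 17287 with siCONTROL and MMC and 15325 to 15539 with siCONTROL alone. The part of these shifts in the results below was not tested. The arrays read a pool of cells, so fewer cells that express a gene and less RNA per cell cannot be told apart.

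**Figure D1:**
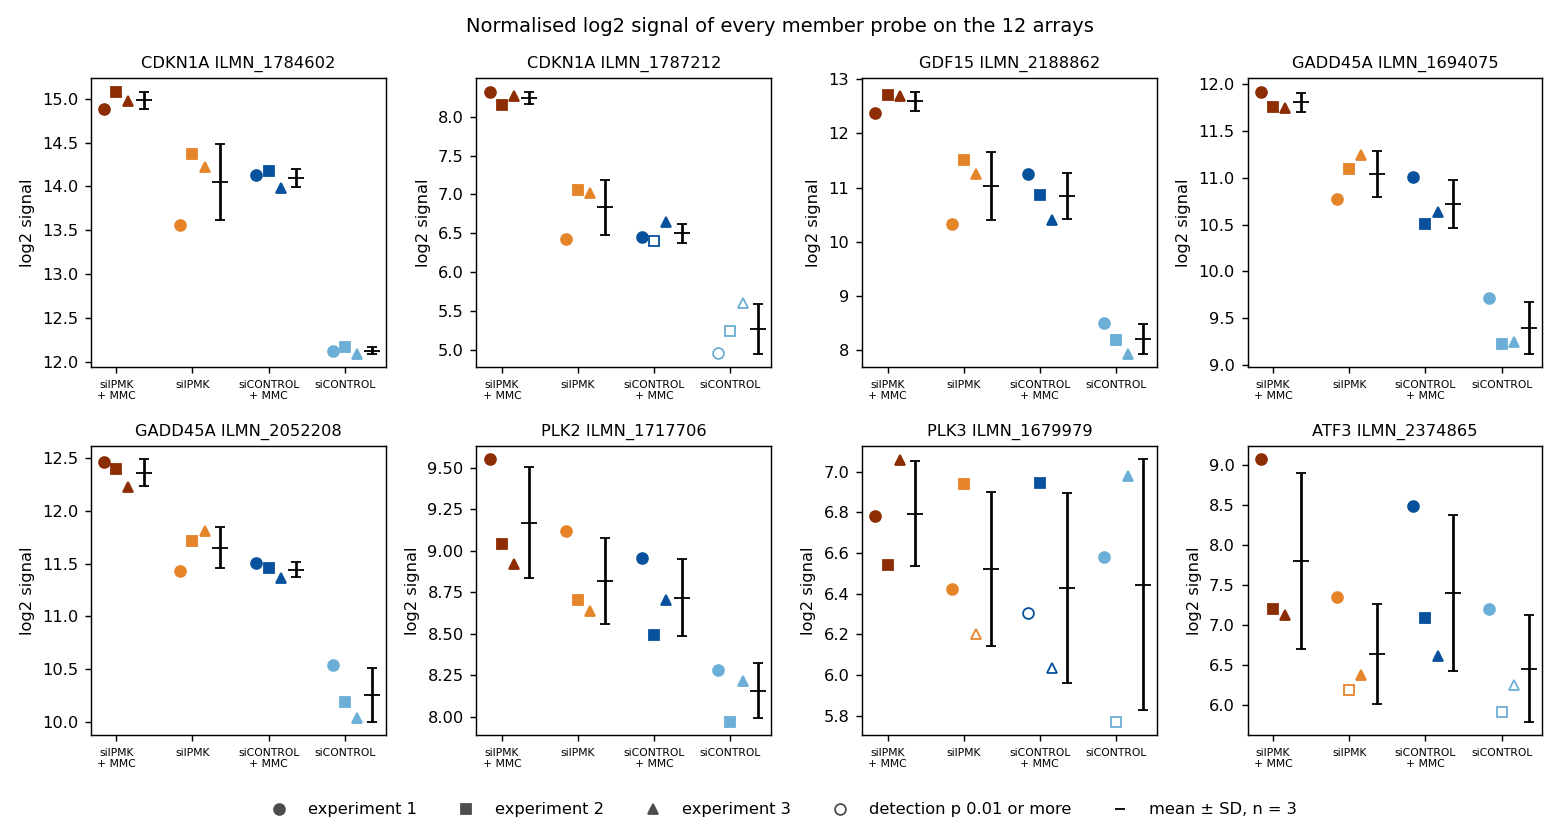
Normalised log2 signal (y axis, one scale per probe) of the 8 probes on the 12 arrays by group (x axis), with a marker shape per experiment, open markers where the detection p was 0.01 or more, and bars for the mean ± SD of 3 arrays. For CDKN1A, GDF15 and GADD45A the siIPMK arrays with MMC were highest and the untreated siCONTROL arrays lowest, with no overlap between them. The share of all detected probes with this order was not counted. The PLK3 groups overlap.

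Signals below are background corrected, quantile normalised log2 values, and differences are log2 differences with the standard error of a limma fit over all 13830 detected probes, whose Benjamini-Hochberg adjusted p is called under 0.05. Levels of different probes are not compared, since a bead array signal depends on the probe. Among the cell cycle inhibitors, the brighter CDKN1A probe, ILMN_1784602, gave 14.89, 15.08 and 14.98 in siIPMK cells with MMC in experiments 1 to 3. In untreated siIPMK cells it gave 13.55, 14.37 and 14.22, in siCONTROL cells with MMC 14.13, 14.18 and 13.98, and in untreated siCONTROL cells 12.12, 12.17 and 12.09. The siIPMK arrays with MMC were thus above all others and the untreated siCONTROL arrays below all others. The groups with only siIPMK or only MMC overlapped. Among all detected probes, 11.1% had every siCONTROL array with MMC above the untreated siCONTROL arrays. For siIPMK arrays with MMC against untreated siIPMK arrays the share was 5%. The shares for the other group pairs and for the whole order were not counted.

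The group means of this CDKN1A probe were 14.98 ± 0.10 with siIPMK and MMC, 14.05 ± 0.43 with siIPMK alone, 14.10 ± 0.11 with siCONTROL and MMC and 12.13 ± 0.04 with siCONTROL alone (SD, n = 3 each). Its highest deposited intensity was 57.8% of the highest value in the table, and 272 of the 13830 detected probes had a higher mean signal. Whether signals this bright still rise in proportion to the RNA was not tested. The dimmer CDKN1A probe, ILMN_1787212, averaged 8.25 ± 0.08 with siIPMK and MMC, 6.83 ± 0.36 with siIPMK alone, 6.50 ± 0.13 with siCONTROL and MMC and 5.27 ± 0.32 with siCONTROL alone. It was detected on 3, 3 and 2 arrays of the first 3 of these groups and on 0 arrays of untreated siCONTROL cells, so that only a bound can be set against that group. The size of its changes depended on the background correction. In the authors' deposited log2 values its siIPMK minus siCONTROL difference with MMC was 0.93 and its MMC change under siIPMK was 0.79, both called and both smaller than the values below.

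GADD45A was read by a pair of probes that ran together. Probe ILMN_2052208 gave 12.47, 12.40 and 12.22 in siIPMK cells with MMC, 11.43, 11.71 and 11.81 in untreated siIPMK cells, 11.50, 11.46 and 11.36 in siCONTROL cells with MMC, and 10.54, 10.19 and 10.04 in untreated siCONTROL cells. Probe ILMN_1694075 averaged 11.81 ± 0.10 with siIPMK and MMC, 11.04 ± 0.24 with siIPMK alone, 10.72 ± 0.26 with siCONTROL and MMC and 9.40 ± 0.28 with siCONTROL alone. As for CDKN1A, the doubly treated arrays were highest, the untreated siCONTROL arrays lowest, and both singly treated groups lay between with overlap. The share of all detected probes with this order was not counted.

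GDF15, the secreted stress factor, had the widest span of the members. Its probe ILMN_2188862 gave 12.38, 12.70 and 12.69 in siIPMK cells with MMC, 10.33, 11.52 and 11.26 in untreated siIPMK cells, 11.26, 10.87 and 10.41 in siCONTROL cells with MMC, and 8.50, 8.20 and 7.94 in untreated siCONTROL cells. The means were 12.59 ± 0.18 with siIPMK and MMC, 11.04 ± 0.63 with siIPMK alone, 10.85 ± 0.42 with siCONTROL and MMC and 8.22 ± 0.28 with siCONTROL alone (SD, n = 3 each). The singly treated groups overlapped again, and the untreated siIPMK array of experiment 1 was the lowest array of both.

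Of the stress kinases, PLK2 (ILMN_1717706) gave 9.55, 9.04 and 8.92 in siIPMK cells with MMC, 9.12, 8.71 and 8.64 in untreated siIPMK cells, 8.96, 8.49 and 8.71 in siCONTROL cells with MMC, and 8.29, 7.97 and 8.22 in untreated siCONTROL cells. The untreated siCONTROL arrays were below all other arrays, and the other groups overlapped. How many of all detected probes had this pattern was not counted. PLK3 (ILMN_1679979) was near the detection limit, on 8 of 12 arrays above it, and averaged 6.79 ± 0.26 with siIPMK and MMC, 6.52 ± 0.38 with siIPMK alone, 6.43 ± 0.47 with siCONTROL and MMC and 6.44 ± 0.62 with siCONTROL alone. These PLK3 groups overlapped throughout.

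ATF3 encodes the stress-induced transcription factor of the set, and its level varied widely within every group. Its probe ILMN_2374865 gave 9.06, 7.20 and 7.13 in siIPMK cells with MMC, 7.35, 6.19 and 6.37 in untreated siIPMK cells, 8.48, 7.09 and 6.62 in siCONTROL cells with MMC, and 7.20, 5.92 and 6.25 in untreated siCONTROL cells. Experiment 1 was the highest in each of the 4 groups. The SD within groups ran from 0.62 with siIPMK alone to 1.10 with siIPMK and MMC, and it was detected on 9 of 12 arrays.

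**Figure D2:**
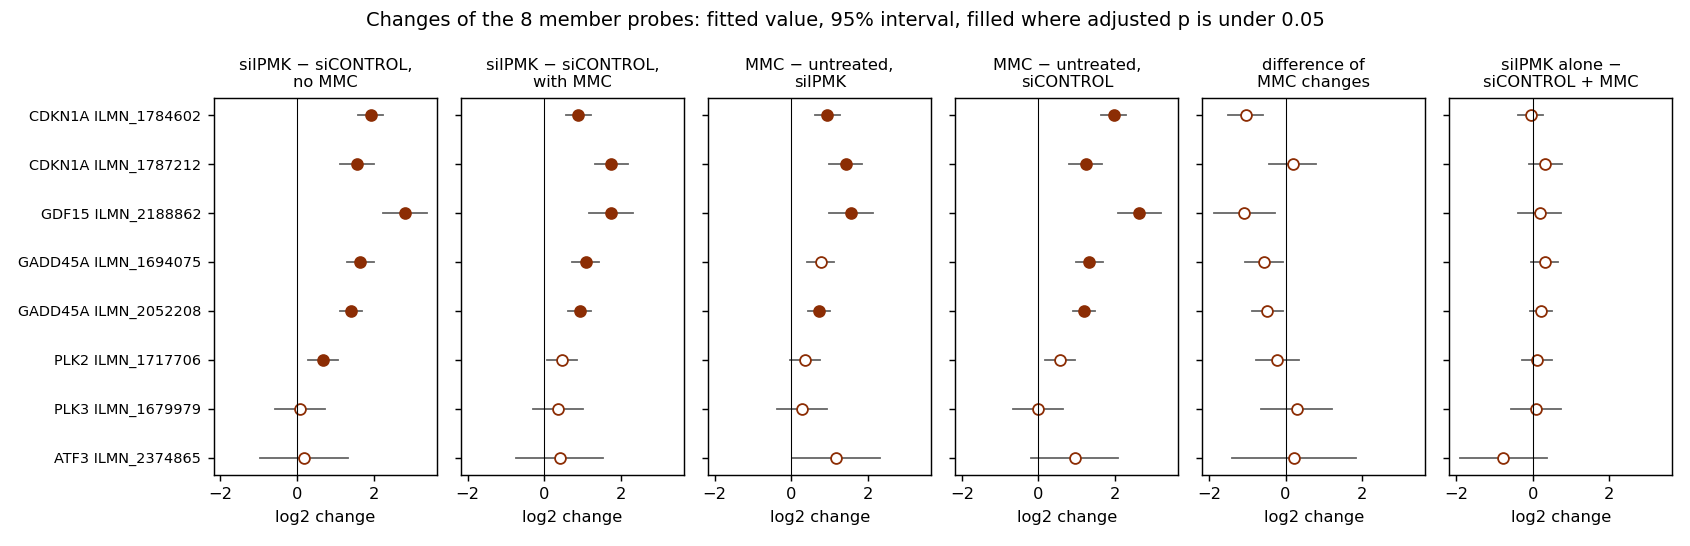
Log2 change (x axis) of the 8 probes (rows) in 6 comparisons (panels), with 95% intervals from the limma fit and filled circles where the adjusted p over all probes was under 0.05. CDKN1A, GDF15 and GADD45A were filled to the right of 0 in both siIPMK comparisons and with MMC under siCONTROL, and no probe was filled in the difference of the MMC changes or in siIPMK alone against siCONTROL with MMC. The dim CDKN1A probe was not detected in untreated siCONTROL cells, so its sizes against that group are not measured.

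The first comparison asked how the members' cytoplasmic transcripts differed after IPMK siRNA in cells without MMC. In untreated siIPMK cells against untreated siCONTROL cells, 6 of the 8 probes rose, of 4 genes, where 19.7% of all 13830 detected probes were called as a rise. GDF15 rose by 2.82 ± 0.26 (7.06-fold, adjusted p = 8.54e-06), the 5th largest rise among all 13830 probes. CDKN1A rose by 1.92 ± 0.15 on the brighter probe (3.79-fold, adjusted p = 5.07e-06). On the dimmer probe, which was not detected in untreated siCONTROL cells, it was at least 1.22-fold higher (adjusted p = 8.47e-05).

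Both GADD45A probes rose, by 1.64 ± 0.16 and 1.40 ± 0.13 (adjusted p = 1.31e-05 and 1.04e-05). PLK2 rose less, by 0.66 ± 0.18 (1.58-fold, adjusted p = 0.0111), and its call was lost without the siCONTROL array of experiment 2 (adjusted p = 0.0525) and without all arrays of experiment 2 or 3. PLK3 differed by 0.08 ± 0.31 and ATF3 by 0.18 ± 0.54 (adjusted p = 0.860 and 0.810). The 95% interval for ATF3 ran from -0.96 to 1.33 in this fit, which does not pair the experiments. A change of either sign and of more than a unit upward was within the error of that fit. With the experiment as a block ATF3 was not called here either (adjusted p = 0.496). The block gave ATF3 a smaller standard error, 0.21 in the MMC comparisons.

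The rises differed between experiments. For GDF15 the siIPMK minus siCONTROL difference was 1.82 in experiment 1 and 3.32 in each of experiments 2 and 3, and for the brighter CDKN1A probe it was 1.44, 2.21 and 2.13. Without both siIPMK arrays of experiment 1 the fitted difference was 3.17 for GDF15, 2.17 for CDKN1A and 1.51 for GADD45A (ILMN_2052208), with adjusted p of 1.39e-08, 1.86e-10 and 2.25e-07. The other GADD45A probe then differed by 1.78 and PLK2 by 0.52 (adjusted p = 3.81e-07 and 0.00754). The dimmer CDKN1A probe was called as a rise (adjusted p = 4.83e-06). That fit called 7222 of all 13830 detected probes, 3552 of them as rises. The difference was positive in 3 of 3 experiments for every member probe except PLK3, which was positive in 1. For ATF3, which was not called, the differences were 0.15, 0.27 and 0.12. The deviations of same-numbered arrays from their group means correlated at only 0.09, 0.11 and 0.12 in this comparison. The share of all detected probes positive in 3 of 3 experiments was not counted.

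The same difference was measured with MMC present in both arms. In siIPMK cells with MMC against siCONTROL cells with MMC, 5 of the 8 probes rose, where 19.7% of all detected probes were called as a rise. GDF15 rose by 1.74 ± 0.26 (3.35-fold, adjusted p = 2.82e-04) and CDKN1A by 0.89 ± 0.15 on the brighter probe (1.85-fold, adjusted p = 6.05e-04) and 1.75 ± 0.21 on the dimmer one (adjusted p = 5.83e-05). The GADD45A probes rose by 1.09 ± 0.16 and 0.92 ± 0.13 (adjusted p = 2.74e-04 and 2.24e-04).

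PLK2 differed by 0.45 ± 0.18 with MMC, which missed the threshold (adjusted p = 0.0624). It was called in 7 of 27 alternative fits, among them without the untreated siIPMK array of experiment 1 (adjusted p = 0.0427), without the siIPMK array with MMC of experiment 3 (0.0421) and without the siCONTROL array with MMC of experiment 1 (0.0413). PLK3 differed by 0.37 ± 0.31 and ATF3 by 0.40 ± 0.54, neither past the threshold (adjusted p = 0.358 and 0.577). Without both siIPMK arrays of experiment 1, GDF15 differed by 1.85, the brighter CDKN1A probe by 0.94 and the dimmer one by 1.72. The GADD45A probes differed by 1.03 and 0.87. All of these were called, where 7216 of the 13830 detected probes were, 3538 of them as rises. PLK2 then differed by 0.26 (adjusted p = 0.141).

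The MMC comparisons asked how the crosslinker changed the same transcripts under each siRNA. Here arrays of the same experiment deviated together. A fit with the experiment as a block is therefore given where it changed the call of a member. The block raised the count of all probes called with MMC under siCONTROL to 363, against 241 without it. In siIPMK cells with MMC against untreated siIPMK cells, 4 of the 8 probes rose, of CDKN1A, GDF15 and GADD45A, where 0.296% of all detected probes were called as a rise. GDF15 rose by 1.56 ± 0.26 (adjusted p = 0.0219), the 3rd largest rise of all probes, and the dimmer CDKN1A probe by 1.42 ± 0.21 (adjusted p = 0.00812), the 6th largest. The brighter CDKN1A probe rose by 0.93 ± 0.15 (adjusted p = 0.0172). Of the GADD45A probes ILMN_2052208 rose by 0.71 ± 0.13 (adjusted p = 0.0394), and ILMN_1694075 was higher by 0.77 ± 0.16 with no overlap, as 5% of all detected probes were, without passing (adjusted p = 0.0903).

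These calls rested on few arrays. The brighter CDKN1A probe was not called without the siIPMK arrays with MMC of experiment 2 or 3 (adjusted p = 0.0760 and 0.0738), nor was GDF15 (0.0901 and 0.107), which was also lost without the untreated siIPMK array of experiment 3 (0.0597). The GADD45A call held in 2 of the 12 fits that left out 1 array, and was lost in each of those that left out a siIPMK array. Without all arrays of experiment 2, or all of experiment 3, 0 of the 8 probes were called, as were 0 of all 13830 probes. Without both siIPMK arrays of experiment 1, GDF15 rose by 1.31 (adjusted p = 0.0239) and the brighter CDKN1A probe by 0.74 (0.00472). The dimmer CDKN1A probe, at 1.17, and GADD45A ILMN_2052208, at 0.55, were not called (0.0635 and 0.175). That fit called 18 of all 13830 detected probes.

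ATF3 was higher with MMC under siIPMK in 3 of 3 experiments, by 1.71, 1.01 and 0.75, a share not counted over all probes. Its fitted change of 1.16 ± 0.54 was the 12th largest of all 13830 probes and did not pass (adjusted p = 0.908), but did pass with the experiment as a block (0.0297). PLK2 differed by 0.35 ± 0.18 and PLK3 by 0.27 ± 0.31 (adjusted p = 0.978 and 0.996).

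In siCONTROL cells with MMC against untreated siCONTROL cells, 5 of the 8 probes rose, where 1.68% of all detected probes were called as a rise. GDF15 rose by 2.63 ± 0.26 (6.20-fold, adjusted p = 4.29e-05), the largest rise among the 13830 probes. CDKN1A rose by 1.97 ± 0.15 on the brighter probe (3.92-fold, adjusted p = 4.27e-06), the 7th largest. The dimmer CDKN1A probe passed as a rise (adjusted p = 0.00333) but was not detected in untreated siCONTROL cells, so no size is given. That call was lost without all arrays of experiment 2 or of experiment 3 (adjusted p = 0.158 and 0.0856).

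GADD45A rose by 1.32 ± 0.16 and 1.19 ± 0.13 with MMC under siCONTROL (adjusted p = 2.57e-04 and 1.20e-04). PLK2 was higher by 0.56 ± 0.18 with no overlap between its replicates, a pattern that 11.1% of all detected probes had, and did not pass (adjusted p = 0.200), but did with the experiment as a block (adjusted p = 0.0237). ATF3 was higher in 3 of 3 experiments, by 1.28, 1.17 and 0.37, where the share of all detected probes was not counted. ATF3 passed only with the block (0.94 ± 0.54, adjusted p = 0.593, and 0.0259 with the block). PLK3 differed by -0.02 ± 0.31 (adjusted p = 0.993).

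**Figure D3:**
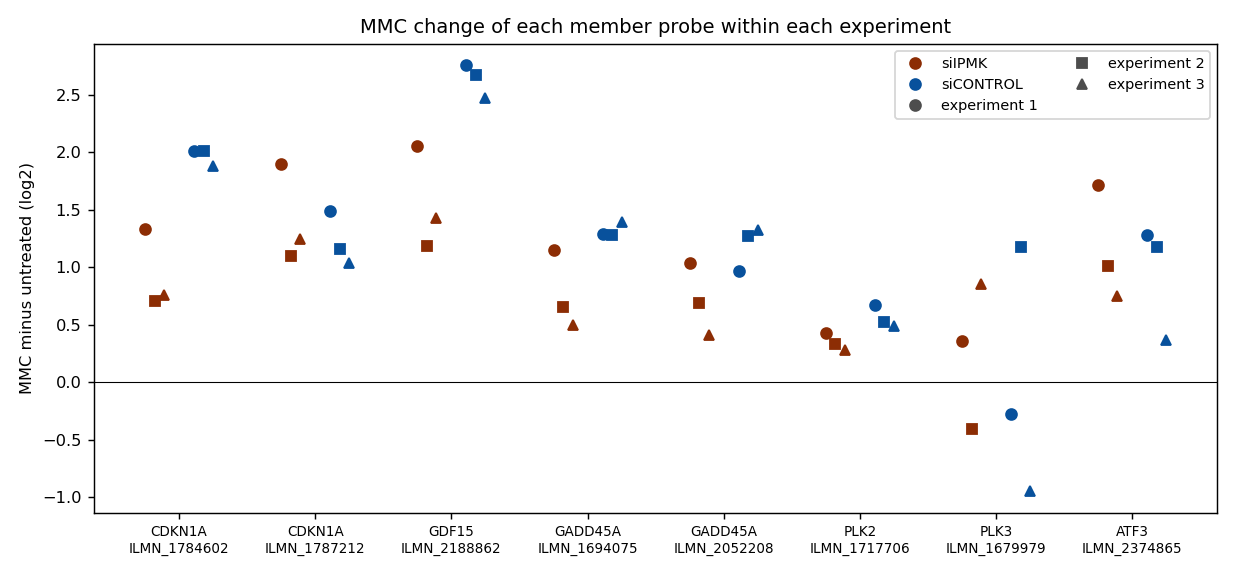
Log2 difference between MMC and untreated arrays of the same experiment (y axis) for each member probe (x axis), under siIPMK and siCONTROL (colours), with a marker shape per experiment. For CDKN1A ILMN_1784602, GDF15, GADD45A ILMN_1694075 and PLK2 each siIPMK value lies below each siCONTROL value. For GADD45A ILMN_2052208, PLK3 and ATF3 the siRNAs overlap, and for PLK3 the sign varies. The share of all detected probes with such a separation was not counted. The dim CDKN1A probe was not detected in untreated siCONTROL cells, so its siCONTROL values there have no measured size.

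Whether the MMC change itself differed between the siRNAs was tested as the difference of the changes, siIPMK minus siCONTROL. None of the 8 probes passed the limma test over all probes, where 0.00723% were called, 1 probe of 13830, and 469 had an unadjusted p under 0.05, 4 of them member probes, of CDKN1A, GDF15 and GADD45A. The estimate for the brighter CDKN1A probe was -1.04 ± 0.21, with a 95% interval from -1.50 to -0.58 (adjusted p = 0.302). For GDF15 it was -1.08 ± 0.37, with an interval from -1.88 to -0.28 (adjusted p = 1.00), and for the GADD45A probes -0.56 ± 0.23 and -0.48 ± 0.19 (adjusted p = 1.00 each).

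In each experiment the MMC change of the brighter CDKN1A probe was smaller with siIPMK, at 1.33, 0.71 and 0.76 in experiments 1 to 3, than with siCONTROL, at 2.01, 2.01 and 1.88. The same held for GDF15, with 2.06, 1.19 and 1.43 under siIPMK and 2.76, 2.67 and 2.47 under siCONTROL. It held as well for GADD45A ILMN_1694075 and for PLK2, at 0.43, 0.33 and 0.28 against 0.67, 0.52 and 0.49. GADD45A ILMN_2052208 went the other way in experiment 1, at 1.03 against 0.96. How many of all detected probes had a smaller change in every experiment was not counted. For the dimmer CDKN1A probe no difference is given, since it would rest on untreated siCONTROL cells, where that probe was not detected.

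The brighter CDKN1A probe, not called in the main fit, was called in 4 of 27 alternative fits. Among them was the fit with array weights, which left out no array (-1.17, adjusted p = 5.55e-04). Without the untreated siIPMK array of experiment 1 the difference on the brighter probe was -1.28 (adjusted p = 5.36e-04), and without both siIPMK arrays of that experiment it was -1.24 (2.37e-04). Without all 4 arrays of experiment 1, 4 of the 8 probes were called, where 32 of all 13830 were. They were of CDKN1A, GDF15 and GADD45A, at -1.21, -1.26, -0.76 and -0.75. PLK2, PLK3 and ATF3 gave differences of -0.21 ± 0.26, 0.29 ± 0.43 and 0.22 ± 0.76, and none was called in any fit.

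The level after siIPMK alone was set beside the level after MMC alone. In untreated siIPMK cells against siCONTROL cells with MMC, 0 of the 8 probes were called by limma and 0 had an unadjusted p under 0.05, where 37.8% of all detected probes were called in either direction. CDKN1A (ILMN_1784602) differed by -0.05 ± 0.15 with a 95% interval from -0.37 to 0.28, GDF15 by 0.19 ± 0.26 (-0.38 to 0.75) and GADD45A (ILMN_2052208) by 0.21 ± 0.13 (-0.08 to 0.50). A missed threshold does not show that the levels were equal, and ATF3 had the widest interval, -0.76 ± 0.54 (-1.91 to 0.38). ATF3 was lower in 3 of 3 experiments, with differences of -1.13, -0.90 and -0.25, where the share of all probes was not counted. It was called with the experiment as a block (adjusted p = 0.00937). In this comparison the deviations of same-numbered arrays from their group means correlated at only 0.08, 0.19 and 0.07.

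This comparison turned on experiment 1. Without both siIPMK arrays of experiment 1, 6 of the 8 probes were called, where 7071 of all 13830 detected probes were. The brighter CDKN1A probe was higher by 0.20, GDF15 by 0.54, the GADD45A probes by 0.45 and 0.32. The dim CDKN1A probe was higher by 0.54 and ATF3 lower by 1.12 on the log2 scale. Without the untreated siIPMK array of that experiment alone, 2 of the 8 probes were called, where 5947 of all 13830 were. They were the dim CDKN1A probe at 0.54 and GADD45A ILMN_1694075 at 0.45.

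Across the 12 arrays, which include the 4 groups and therefore share their differences, the brighter CDKN1A probe correlated with GDF15 at r = 0.989 and GDF15 with GADD45A at 0.985. PLK2 correlated with these 3 genes at 0.790 to 0.856 and with ATF3 at 0.767, and PLK3 with the others at 0.188 to 0.305. Among 9403 other named genes, the nearest in pattern to GDF15 was DRAM1 (r = 0.997), a lysosomal protein gene and p53 target, which was also nearest to CDKN1A (0.991), followed there by DELE1 (0.984). The next to GDF15 was MICALL1 (0.980), which was also the nearest to GADD45A (0.988), followed there by FAM43A (0.984). The nearest to PLK2 were TAX1BP3 (0.945) and COL9A2 (0.931), to ATF3 CYGB (0.903) and TNNC2 (0.889), and to PLK3 NBEAL2 (0.820) and FPGS (0.805).

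**Figure D4:**
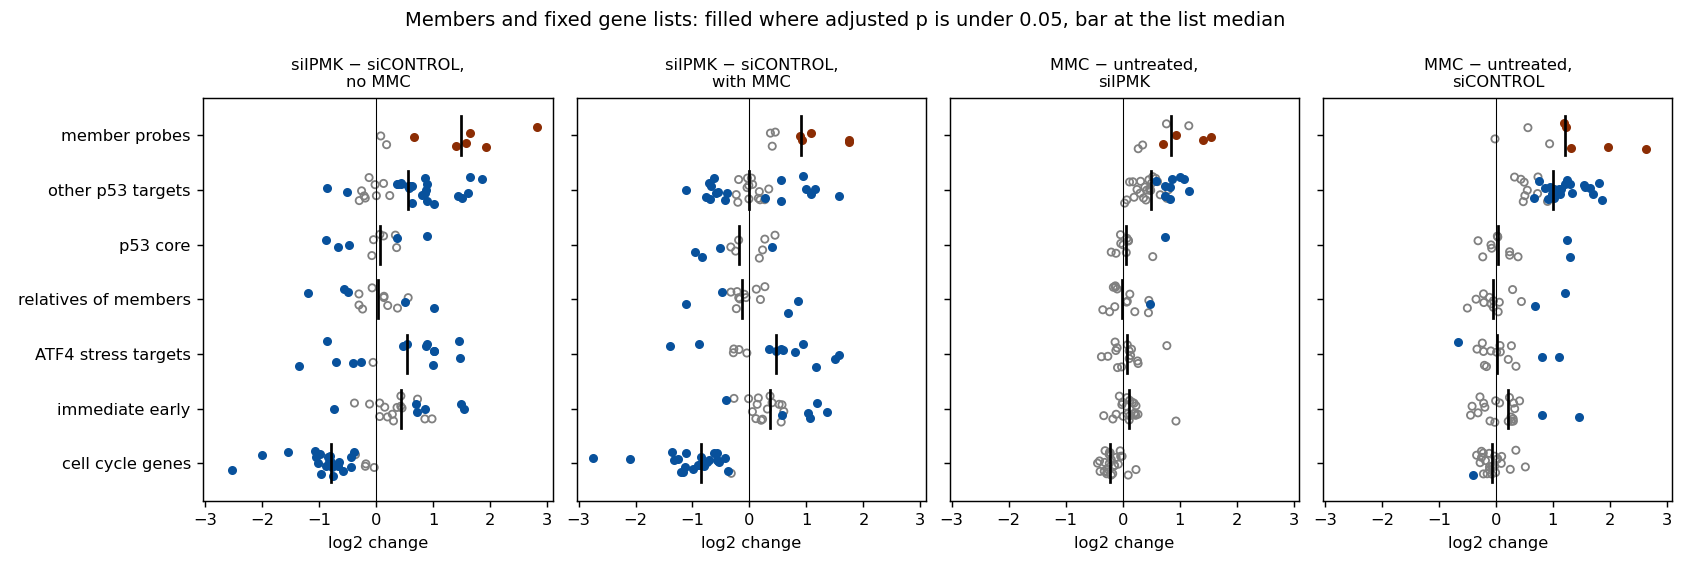
Log2 change (x axis) of the member probes and of the genes of 6 lists (rows) in 4 comparisons (panels), filled where the adjusted p over all probes was under 0.05, with a bar at each median. With siIPMK and no MMC 21 of 32 other p53 targets rose and 21 of 25 cell cycle genes fell, and with MMC under siCONTROL 23 of 32 p53 targets rose and 1 of 25 cell cycle genes fell.

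Of 32 other measured p53 targets, 21 rose and 2 fell in untreated siIPMK cells against untreated siCONTROL cells, with a median change of 0.56, where 20.3% of 9409 genes rose and 19.6% fell and the median was 0.00. DRAM1 rose by 1.86 ± 0.16 (adjusted p = 7.10e-06). The death receptor gene TNFRSF10A was at least 1.61-fold higher and SPATA18 at least 1.86-fold, neither detected in untreated siCONTROL cells (adjusted p = 4.62e-04 and 1.91e-04). With MMC in both arms 8 rose and 10 fell, with a median of -0.01, where 20.7% of genes rose and 20.3% fell. TNFRSF10A was at least 2.32-fold higher and PLTP rose by 1.16 ± 0.20, while RRM2B, a ribonucleotide reductase subunit, fell by 1.11 on the log2 scale. The members CDKN1A, GDF15 and GADD45A rose in that comparison.

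With MMC against untreated cells under siIPMK 9 of the 32 other p53 targets rose and 0 fell, with a median of 0.50, where 0.351% of genes rose. TP53I3 rose by 1.17 ± 0.13, PMAIP1 by 1.08 ± 0.14 and SFN, the 14-3-3 sigma gene, by 1.01 ± 0.17. With MMC under siCONTROL 23 of the 32 rose and 0 fell, with a median of 1.01, where 1.86% of genes rose and 0.0638% fell. PHLDA3 rose by 1.86 ± 0.14, the death gene PMAIP1 by 1.82 ± 0.14 and DRAM1 by 1.70 ± 0.16 (adjusted p = 4.27e-06, 4.27e-06 and 3.06e-05). In untreated siIPMK cells against siCONTROL cells with MMC, 3 of these targets rose and 18 fell, where 19.6% of genes rose and 19.4% fell, with RRM2B lower by 1.60, ZMAT3 by 1.52 and KITLG by 1.52 on the log2 scale. With both siIPMK arrays of experiment 1 left out, 21 rose and 4 fell with siIPMK and no MMC, 9 rose and 12 fell with MMC in both arms, 4 rose with MMC under siIPMK, and 4 rose and 18 fell in siIPMK alone against MMC alone. Of all genes in that fit 27.1%, 27.6%, 0.17% and 26.4% rose and 26.5%, 25.8%, 0.0106% and 26.3% fell in these 4 comparisons.

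A further list held genes that control p53, of which MDM2 and PPM1D are also among the targets above. Of its genes 11 were measured. Without MMC, 2 rose and 3 fell with siIPMK, shares near the 20.3% and 19.6% of all 9409 genes: PPM1D, a phosphatase that restrains p53, rose by 0.37 ± 0.13, and MDM2, its ubiquitin ligase, passed as a rise (adjusted p = 0.0171) but was not detected in untreated siCONTROL cells. The inhibitor MDM4 was at least 1.19-fold lower, not detected in siIPMK cells, CHEK2, a checkpoint kinase, fell by 0.67 and TP53RK by 0.48 on the log2 scale. ATM, ATR, USP7, HIPK2, TP53BP1 and EP300 ranged from -0.08 to 0.36 and did not pass. With MMC in both arms USP7 rose by 0.40 ± 0.14, CHEK2 fell by 0.96 and TP53RK by 0.51 on the log2 scale, MDM4 was at least 1.21-fold lower, and the other 7 did not pass, at -0.33 to 0.45. These 1 rise and 3 falls of 11 stand beside 20.7% and 20.3% of all genes. The fit without both siIPMK arrays of experiment 1 called 4 rises and 3 falls without MMC, and 2 rises and 3 falls with it. Of all genes in that fit 27.1% rose and 26.5% fell without MMC, and 27.6% rose and 25.8% fell with it.

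With MMC PPM1D rose by 0.75 ± 0.13 under siIPMK and by 1.30 ± 0.13 under siCONTROL (adjusted p = 0.0269 and 4.29e-05). MDM2 differed by 0.53 under siIPMK (adjusted p = 0.962) and was at least 1.05-fold higher with MMC under siCONTROL (adjusted p = 0.0231). Thus 1 of 11 genes rose under siIPMK, where 0.351% of all genes did, and 2 of 11 under siCONTROL, where 1.86% did. In the fit without both siIPMK arrays of experiment 1, 0 of the 11 were called under siIPMK, where 0.17% of all genes rose. The other core genes did not pass in either MMC comparison, at -0.20 to 0.10 under siIPMK and -0.31 to 0.39 under siCONTROL.

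Relatives of the members, such as other cyclin-dependent kinase inhibitors and polo-like kinases, formed another list. Of 14 measured relatives, 2 rose and 3 fell with siIPMK and no MMC, where 20.3% of all 9409 genes rose and 19.6% fell: the mitotic kinase gene PLK1 fell by 1.20 on the log2 scale, TOB1, a relative of BTG2, rose by 1.02 ± 0.13, and the p19 inhibitor gene CDKN2D fell by 0.57. With MMC in both arms 2 rose and 2 fell, among them PLK1 lower by 1.11 and TOB2 higher by 0.67 ± 0.16, and GADD45G passed as a rise but was not detected in siCONTROL cells with MMC. With MMC under siIPMK BTG3 rose by 0.49 ± 0.09 (adjusted p = 0.0427), and under siCONTROL TOB1 rose by 1.21 ± 0.13 and BTG3 by 0.68 ± 0.09. Of all genes, 20.7% rose and 20.3% fell with siIPMK under MMC, 0.351% rose with MMC under siIPMK and 1.86% rose with MMC under siCONTROL. When both siIPMK arrays of experiment 1 were left out, 2 relatives rose and 4 fell with siIPMK and no MMC. Of all genes 27.1% then rose and 26.5% fell. With MMC in both arms 2 relatives rose and 2 fell, where 27.6% and 25.8% of all genes did. With MMC under siIPMK 0 were called, where 0.17% of all genes rose.

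ATF3 is also a target of ATF4, the factor of the integrated stress response, and belongs with the immediate early genes in several tissues. Of 15 measured ATF4 targets, 9 rose and 5 fell with siIPMK without MMC, with a median of 0.54, where 20.3% of all 9409 genes rose and 19.6% fell, among them VLDLR higher by 1.45 ± 0.32 and PHGDH, of serine synthesis, lower by 1.36. SLC7A11, the cystine transporter gene, passed as a rise but was not detected in untreated siCONTROL cells. With MMC in both arms 9 rose and 2 fell against siCONTROL cells with MMC, where 20.7% of genes rose and 20.3% fell. These counts were 9 and 5 without MMC and 9 and 3 with it when both siIPMK arrays of experiment 1 were left out. All genes in that fit had 27.1% rises and 26.5% falls without MMC, and 27.6% and 25.8% with it. With MMC against untreated cells 0 were called under siIPMK, where 2 of the 15 had an unadjusted p under 0.05 by limma. Under siCONTROL SESN2 was at least 1.47-fold higher, DDIT4 rose by 0.81 ± 0.13 and ASNS fell by 0.67 on the log2 scale, where 1.86% of genes rose and 0.0638% fell. SESN2 is also among the p53 targets.

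Of 21 measured immediate early genes, 5 rose and 1 fell with siIPMK, both without and with MMC, where 20.3% and 20.7% of all 9409 genes rose and 19.6% and 20.3% fell, so the share of rises was near that of all genes. Leaving out both siIPMK arrays of experiment 1 gave 5 rises and 2 falls without MMC, and 5 rises and 1 fall with it. That fit called 27.1% of all genes as rises and 26.5% as falls without MMC, and 27.6% and 25.8% with it. Without MMC FOSL1 was at least 1.12-fold higher, DUSP5 rose by 1.49 ± 0.18 and MYC by 0.86 ± 0.15. With MMC DUSP5 rose by 1.35 ± 0.18, MYC by 1.18 ± 0.15 and KLF2 by 1.07 ± 0.18. With MMC against untreated cells 0 of the 21 were called under siIPMK, where 1 had an unadjusted p under 0.05 by limma. Under siCONTROL FOSL1 was at least 1.06-fold higher and IER5 rose by 0.80 ± 0.13, where 1.86% of genes rose.

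Genes repressed through p21 and the DREAM complex were lower with siIPMK. Of 25 measured, 21 fell and 0 rose without MMC, with a median of -0.80, and 24 fell and 0 rose with MMC, with a median of -0.85, where 19.6% and 20.3% of all 9409 genes fell. After leaving out both siIPMK arrays of experiment 1, 24 fell without MMC and 25 with it, and 0 rose. Of all genes 26.5% and 25.8% fell in that fit. The thymidine kinase gene TK1 fell by 2.53, the survivin gene BIRC5 by 2.01 and the proliferation marker MKI67 by 1.55 on the log2 scale without MMC (adjusted p = 2.29e-04, 1.35e-04 and 1.91e-04). With MMC against untreated cells 0 of the 25 were called under siIPMK, where 3 had an unadjusted p under 0.05 by limma. Under siCONTROL 1 was called as a fall, MCM6 by 0.41 on the log2 scale (adjusted p = 0.0420). Of all genes 0.0106% fell under siIPMK and 0.0638% under siCONTROL. The medians were -0.22 under siIPMK and -0.08 under siCONTROL. In untreated siIPMK cells against siCONTROL cells with MMC, 20 of the 25 fell and 0 rose, where 19.4% of genes fell. Without both siIPMK arrays of experiment 1, 22 of the 25 fell, where 26.3% of genes did.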

How the data were processed

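Biotin-labelled RNA from the cytoplasm of 12 Cal51 samples was hybridised to Illumina bead arrays. Per the file headers, the deposited summary holds each probe's intensity, detection p-value and bead number, not visibly normalised between arrays. The authors' processed log2 values cover 14853 probes and were made with lumi, per the submitters' processing notes, with settings not given in the sources used here. Probes were named from the platform annotation, which gives 12850 of them 1 symbol and 2 of them several. Entrez identifiers in the RefSeq gene table brought 12847 up to date.

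Intensities were processed with limma 3.58.1 in R 4.3.3. The neqc function (background from detection p-values, offset 16, quantile normalization, log2) was followed by a filter that kept the 13830 probes detected at p under 0.01 on 3 or more arrays. One model of 4 group means was fitted over 12 arrays with a mean-variance trend, and p-values were adjusted by Benjamini-Hochberg over all probes and called under 0.05. All p-values are from this moderated test. For list genes the probe with the highest mean signal was used. Where every array of a group was below detection, a bound was computed against the lowest signal of detected probes on each array. The fit was tested on simulated data. Precision is limited by the number of arrays, and a probe had a median of 20 or 21 beads.

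Every member probe is reported. From each list up to 3 called genes with the largest change are named, from the p53 control list all measured genes, and for each member the 2 genes with the highest Pearson correlation. The members, lists and tests were chosen with earlier results of these data known. Median scaling, no background correction, the authors' values, other filters, gene-level values, an experiment block, no trend, array weights and leaving out arrays or experiments were tried as alternatives. List counts without both siIPMK arrays of experiment 1 were added after seeing the data. The gene lists were not counted with the experiment as a block, in the MMC comparisons or elsewhere. Deviations from group means of same-numbered arrays correlated at 0.689, 0.525 and 0.332 between the siIPMK groups and at 0.455, 0.182 and 0.376 between the siCONTROL groups, so the experiment numbers pair arrays in the MMC comparisons. They did not reach 0.1 in every pair between the siRNAs, where the block is treated as an alternative. The labels number the arrays of a group as experiments and do not say whether these are separate cultures throughout, so p-values measure the spread between these samples. Promoter windows are from the RefSeq table on GRCh38.p14, which held no window for GADD45A.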

Additional observations from a re-analysis of the deposited data

How the results depend on the processing

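Of 1254 refitted member values, 1177 stayed on their side of the threshold, 34 were no longer called, 42 were newly called, and 1 passed it with the opposite sign. The rises of GDF15, of the bright CDKN1A probe and of both GADD45A probes were called in every alternative of both siIPMK comparisons and of MMC under siCONTROL. That one was CDKN1A ILMN_1784602 in siIPMK alone against siCONTROL with MMC, 0.20 without both siIPMK arrays of experiment 1. The cause of the changes below was not tested, except that gene-level fits test 6 genes and the strict filter 5 member probes by construction.

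Median scaling on all probes put the median of all probes at 0.12 without MMC and 0.14 with MMC in the siIPMK comparisons, against -0.01 in each with quantile normalization, and the share of rises among calls at 71.0% without MMC and 72.3% with MMC, against 50.5% and 49.2%. It called 25 probes with MMC under siIPMK and 0 in the difference of the MMC changes. Median scaling on detected probes, chosen after seeing the data, gave 43.2% and 45.7% rises. The difference called 2 probes with no background correction or with the authors' values, and 0 without the variance trend and at gene level. Detection on all 12 arrays left 18 calls, 2 of them members, for MMC under siIPMK and 158 calls under siCONTROL. At gene level 3 of 6 member genes were called with siIPMK under MMC and with MMC under siCONTROL. Of all 9409 genes, 3882 and 194 were called with 1 probe per gene, and 3960 and 189 with the mean of probes. Without the trend 36 probes, 2 of them members, were called with MMC under siIPMK.

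The replicate block, which pairs arrays by experiment, called 363 probes with MMC under siCONTROL. With siIPMK under MMC it called PLK2 (adjusted p = 0.00802), among 6272 probes. In siIPMK alone against MMC alone it called 6058 probes, 1 of them a member, ATF3 (0.00937). It changed no other member call beyond those given above. Between the siRNAs same-numbered arrays correlated at -0.02 to 0.19. Array weights called 121 probes with MMC under siIPMK, 671 with MMC under siCONTROL, 44 in the difference with 2 members (CDKN1A at -1.17, GDF15 at -1.23), and 7985 with 5 members in siIPMK alone against MMC alone.

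Leaving out 1 array at a time gave 3533 to 6203 calls, 5 to 6 of them members, with siIPMK, and 3774 to 6551, with 5 to 6 members, with siIPMK under MMC. It gave 15 to 37 with MMC under siIPMK, 1 to 4 members, 155 to 344 with MMC under siCONTROL, 5 members each time, 0 to 8 in the difference, 0 to 1 member, and 3328 to 5998 in siIPMK alone against MMC alone, 0 to 2 members.

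Without experiment 1, 510 probes were called with MMC under siCONTROL and 32 with 4 members in the difference. In siIPMK alone against MMC alone 7269 were called, 5 of them members. Without experiment 2 the counts were 1407 with siIPMK, 1477 with siIPMK under MMC, 0 with MMC under siIPMK, 0 of them members, 61 with MMC under siCONTROL, 0 in the difference and 1252 in siIPMK alone against MMC alone. Without experiment 3 these counts were, in the same sequence, 1443, 1648, 0 with 0 members, 66, 0 and 1277. Without both siIPMK arrays of experiment 1 they were 18 with 2 members with MMC under siIPMK and 579 with MMC under siCONTROL. The difference then called 17 probes with 1 member. In siIPMK alone against MMC alone that fit called 7071 probes, 6 of them members. A slide block was not run, since the headers used here give no slide.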
